A study of Arabidopsis thaliana with 12 samples.

Results

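Histones are the proteins around which nuclear DNA is wound, and the genes for them were followed here through cold stratification of the seed in *Arabidopsis thaliana* Col-0. The genes were taken as the rows of the deposited expression table described as histone H1, H2A, H2B, H3, H4 or histone superfamily, leaving out enzymes, and gave 46 of the 32833 loci in the table. They comprised 2 H1, 13 H2A, 9 H2B, 13 H3 and 8 H4 genes and AT5G19490, a histone superfamily protein that belongs to no core class. The words had matched 49 loci, of which 3 were dropped for a word ending in "ase". The 4 groups of 3 mRNA libraries were compared, and every seed carried the Col-0 background. Stratified seeds (2 days, submerged at 4 °C) came from a line labelled atalkbh1a1b, called mutant-labelled below, or from wild type. Dry seeds of the same lines, labelled 0 days, were their controls. The line is named for a pair of AlkB homologues, and the labels do not give the alleles, the number of independent lines or the age of the seeds. No group was wetted without cold, so water and cold cannot be told apart. Nothing in the labels ties replicates to different plants or seed lots, so every p-value measures only the spread between these samples.

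A nucleosome holds pairs of H2A, H2B, H3 and H4, and H1 binds the DNA between nucleosomes. Replicative histones are made mainly while DNA is copied in S phase, when the chaperone CAF-1 deposits H3.1, whereas H3.3 is deposited outside replication by the HIRA complex. Variants of H2A carry other tasks: H2A.X is phosphorylated at DNA breaks, H2A.W marks plant heterochromatin, and H2A.Z is placed by the SWR1 complex around the starts of genes. The embryo of a dry seed is arrested before DNA replication, and cell division resumes late in germination.

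The H3.1 and H3.3 classes are separated by few residues but by many bases, which is what lets short reads tell the genes apart. Each of these 8 genes has a coding form of 411 bases in TAIR10.1. The other 4 H3.1 genes differ from AT5G65360 at 55 to 65 bases, none of which alters the encoded protein, and the 3 H3.3 genes differ at 81 to 101 bases. In H3.3 codons 31, 41, 87 and 90 encode another residue. Codons 26 to 46 are shown because they hold the first pair of those codons, with bases that differ from AT5G65360 in capitals, read 5′ to 3′ on the coding strand (RefSeq, TAIR10.1).
AT5G65360: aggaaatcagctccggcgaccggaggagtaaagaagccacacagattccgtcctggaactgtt
AT1G09200: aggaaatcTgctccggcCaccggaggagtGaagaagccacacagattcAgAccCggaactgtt
AT3G27360: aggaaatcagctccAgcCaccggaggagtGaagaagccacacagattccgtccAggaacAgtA
AT5G10400: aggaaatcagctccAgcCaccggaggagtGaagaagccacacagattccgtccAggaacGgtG
AT5G10390: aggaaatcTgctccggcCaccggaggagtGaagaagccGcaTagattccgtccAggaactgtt
AT4G40030: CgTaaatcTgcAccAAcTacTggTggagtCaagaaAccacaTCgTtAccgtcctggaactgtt
AT4G40040: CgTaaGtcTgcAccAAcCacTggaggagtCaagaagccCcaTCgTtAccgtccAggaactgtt
AT5G10980: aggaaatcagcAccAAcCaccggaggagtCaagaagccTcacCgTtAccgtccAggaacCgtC

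The first 5 lines are H3.1 genes and the last 3 are H3.3 genes. The 8 H4 genes encode a single protein, and pairs of them differ at 6 to 66 of 312 coding bases. The closest H4 pairs are AT1G07820 with AT1G07660 (6 bases), AT3G46320 with AT3G45930 (8 bases) and AT5G59690 with AT5G59970 (9 bases), so their values are less certain where reads fall in shared stretches. AT5G02570 lies wholly inside HTA12 on the other strand and was at 0 in all 12 libraries. Every stretch of 50 bases in it also occurs in another locus, so this 0 sets no upper limit on its transcript. How reads that map to several genes were counted, and whether strand was used, is not given in the sources used here.

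Upstream sequence was read for each gene over the 250 bases before its annotated start. The 5 windows below are shown for the genes the results turn on: an H3.1 gene that rose in both lines, an H3.1 gene that did so in wild type alone, the H3.3 gene that passed in neither line, the H2B gene with the largest rise and the H2B gene that fell. They lie at chr5:26120582-26120831, chr1:2972335-2972584, chr4:18558946-18559195, chr1:2412688-2412937 and chr1:2563707-2563956 of TAIR10.1, the first 3 and the last on the minus strand, and each is written 5′ to 3′ on the strand of its gene (RefSeq). Capitals mark CGCGGATC or its reverse complement GATCCGCG, ACGTCA or TGACGT, and ACGTGGC or GCCACGT.
AT5G65360: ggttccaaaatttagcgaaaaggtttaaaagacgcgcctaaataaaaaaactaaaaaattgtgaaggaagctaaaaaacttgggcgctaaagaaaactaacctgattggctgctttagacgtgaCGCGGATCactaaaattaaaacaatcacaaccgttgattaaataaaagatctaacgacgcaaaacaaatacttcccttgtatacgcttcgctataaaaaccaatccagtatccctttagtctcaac
AT1G09200: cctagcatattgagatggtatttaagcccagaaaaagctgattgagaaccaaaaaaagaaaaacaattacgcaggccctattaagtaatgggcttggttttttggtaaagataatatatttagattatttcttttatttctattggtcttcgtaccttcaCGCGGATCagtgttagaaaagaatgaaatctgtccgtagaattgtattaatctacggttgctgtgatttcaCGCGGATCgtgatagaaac
AT4G40040: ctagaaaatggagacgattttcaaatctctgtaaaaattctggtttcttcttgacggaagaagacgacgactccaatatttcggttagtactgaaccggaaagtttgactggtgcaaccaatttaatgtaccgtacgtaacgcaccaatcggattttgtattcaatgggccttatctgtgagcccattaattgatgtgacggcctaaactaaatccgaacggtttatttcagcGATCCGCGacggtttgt
HTB1: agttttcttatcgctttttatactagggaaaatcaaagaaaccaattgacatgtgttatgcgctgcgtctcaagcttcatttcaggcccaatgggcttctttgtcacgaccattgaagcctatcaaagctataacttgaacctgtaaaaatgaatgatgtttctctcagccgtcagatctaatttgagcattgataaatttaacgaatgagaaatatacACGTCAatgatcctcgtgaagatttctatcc
AT1G08170: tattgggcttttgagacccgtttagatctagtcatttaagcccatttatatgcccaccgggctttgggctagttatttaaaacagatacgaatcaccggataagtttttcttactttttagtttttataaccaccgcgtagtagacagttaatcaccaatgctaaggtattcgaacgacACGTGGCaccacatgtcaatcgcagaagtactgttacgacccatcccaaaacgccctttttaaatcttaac

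CGCGGATC, the octamer known from plant histone promoters, was present on either strand in 10 of the 46 windows and in 0.135% of the windows of all 27443 nuclear protein-coding genes. Its carriers were H1.1, HTA6, HTA10, HTA13, the H3.1 genes AT5G65360, AT1G09200 and AT5G10400, the H3.3 gene AT4G40040 and the H4 genes AT5G59690 and AT1G07660. ACGTCA, the hexamer first described in a wheat H3 promoter, was in 7 of 9 H2B windows and 10 of 46 in all, against 7.69% of all genes. TTTCCCGC, an E2F-type element, was in 0 of 46 windows and in 0.619% of all. Only this spelling and its reverse complement were searched, so the 0 does not cover other forms of E2F element. CATGCA, the RY element of seed promoters, was in 2 of 46 and in 8.43% of all. ACGTCA and ACGTGGC share ACGT. The element ACGTGGC, a core of abscisic acid response elements, was searched after the window of AT1G08170 had been seen; it was in 5 of 46 windows and in 3.37% of all, and in AT1G08170 it starts 71 bases before the gene.

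Libraries held 17.8 M to 23.0 M reads in the RPKM denominator, where RPKM is the read number scaled for transcript length and library size. Dry wild-type libraries were nearly alike (Pearson r of log2 values across genes at 0.996), while stratified wild-type libraries ranged from 0.890 to 0.981. Stratified wild-type replicate 3 stood apart from the other wild-type pair: on the first principal component, which held 83.6% of the variance, stratified mutant-labelled libraries were at 85.2, 76.4 and 49.98, stratified wild-type libraries at 127, 143 and 71.5, and dry libraries between -96.7 and -89.2. Ribosomal RNA was taken from the 4 nuclear ribosomal loci in the deposited table, without those of plastids and mitochondria. It made up 15.1%, 3.78% and 29.3% of reads in stratified mutant-labelled libraries and 5.91%, 3.05% and 15.4% in stratified wild-type ones, against 4.06%, 10.8% and 3.64% in dry mutant-labelled and 3.25% to 3.74% in dry wild-type libraries. The locus described as an alkB dioxygenase, AT1G11780, had 13, 12.7 and 5.86 RPKM in stratified mutant-labelled seeds and 12.9, 15 and 10.9 RPKM in stratified wild-type seeds, a change of -0.34 ± 0.28 that did not pass (limma adjusted p = 0.54). AT5G01780, described as a 2-oxoglutarate-dependent dioxygenase, had 0.436, 0.499 and 0.236 RPKM in stratified mutant-labelled seeds and 6.58, 6.69 and 4.29 RPKM in stratified wild-type seeds, and was lower in the mutant-labelled seeds (-2.29 ± 0.22, adjusted p = 2.1e-05). The labels do not pair the mutated genes with loci, so the lines are named by their labels.

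Of the 46 histone genes, 38 reached 1 RPKM in at least 3 libraries and were tested, within a fit of all 15145 such genes by limma on log2(RPKM + 1). The 8 others are named with their classes below, except the H2B gene AT5G02570, which is named above. Stratification raised histone transcripts more often than it lowered them. In mutant-labelled seeds 16 of the 38 were higher and 3 were lower (adjusted p under 0.05), where 43.4% of all tested genes were higher and 15.2% were lower. In wild type 25 were higher and 2 were lower, against a background of 49.8% higher and 18.9% lower. The share called higher was thus near the background in mutant-labelled seeds, at 16 of 38, and the median change of the tested histone genes was 0.75 there and 1.34 in wild type. Of the 38, HTA8 and HTR11 reached 1 RPKM in no dry library, so these counts and medians are descriptions. The median of all tested genes moved by 0.50 in mutant-labelled seeds and 0.64 in wild type on the log2(RPKM + 1) scale, so changes are also given relative to it. Centring each library on its median left 14 higher and 8 lower in mutant-labelled seeds, and 22 higher and 9 lower in wild type. After centring, the median change of all tested genes was 0.032 in mutant-labelled seeds and 0.064 in wild type. No share of all genes called was taken there, so the centred counts have no background and are descriptions. The uncentred calls overlapped: 15 genes were higher in both lines, 10 in wild type alone, 1 in mutant-labelled seeds alone, and 1 was lower in both. Being called in a single line does not show that the lines differ, which is tested below.

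**Figure D1:**
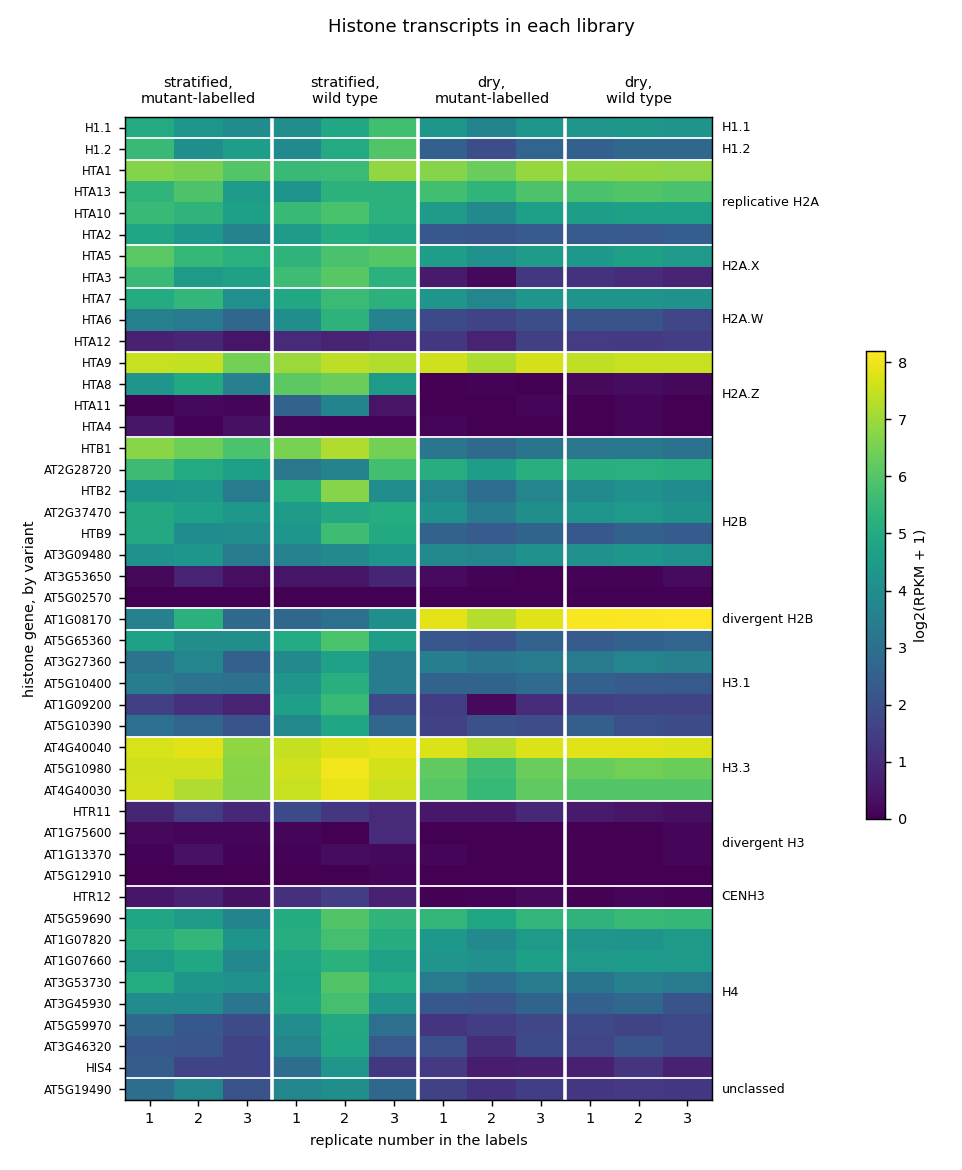
Transcript level of the 46 histone genes as log2(RPKM + 1) in each of the 12 libraries, with columns by group and rows by variant, ordered by mean level within a variant. AT1G08170 is bright in the dry columns and dark in the stratified ones, HTA8 and HTA3 show the opposite, and HTA9 and AT4G40040 stay bright throughout.

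The H3 genes matched by the rule totalled 652, 617 and 356 RPKM in stratified mutant-labelled seeds and 657, 913 and 673 RPKM in stratified wild-type seeds. In dry seeds the H3 sum was 377, 269 and 393 RPKM in mutant-labelled seeds and 387, 396 and 387 RPKM in wild-type seeds, and the lowest stratified mutant-labelled library lay inside the dry range. H4 sums were 143, 137 and 76.0 RPKM in stratified mutant-labelled seeds and 183, 344 and 159 RPKM in stratified wild-type seeds, against 99.3, 71.7 and 106 RPKM in dry mutant-labelled seeds and 96.8, 109 and 103 RPKM in dry wild-type seeds. The H2B sum was lower on average, at 260.3, 229.7 and 142 RPKM in stratified mutant-labelled seeds and 192, 363 and 254 RPKM in stratified wild-type seeds, against 321, 216 and 312 RPKM in dry mutant-labelled seeds and 371, 387 and 386 RPKM in dry wild-type seeds; its groups overlapped in mutant-labelled seeds and did not in wild type. Without AT1G08170 the other 8 H2B genes totalled 249, 193 and 135 RPKM in stratified mutant-labelled seeds and 187, 356 and 238 RPKM in stratified wild-type seeds, against 89.9, 62.9 and 92.4 RPKM in dry mutant-labelled seeds and 95.3, 105 and 94.0 RPKM in dry wild-type seeds. Every stratified library then lay above every dry one. In whole seeds, fewer cells of a type and less RNA per cell cannot be told apart. The 4 histone loci whose descriptions the rule does not match changed 2 of these sums: with HTB4 and HTB11 the H2B ratio of stratified over dry was 1.39 in mutant-labelled seeds and 1.26 in wild type, against 0.743 and 0.707 without them, and with HIS1-3 the H1 ratio was 0.753 and 1.02, against 2.36 and 2.85. MGH3, the fourth, is a male gamete H3 and was at 0 in every library.

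**Figure D2:**
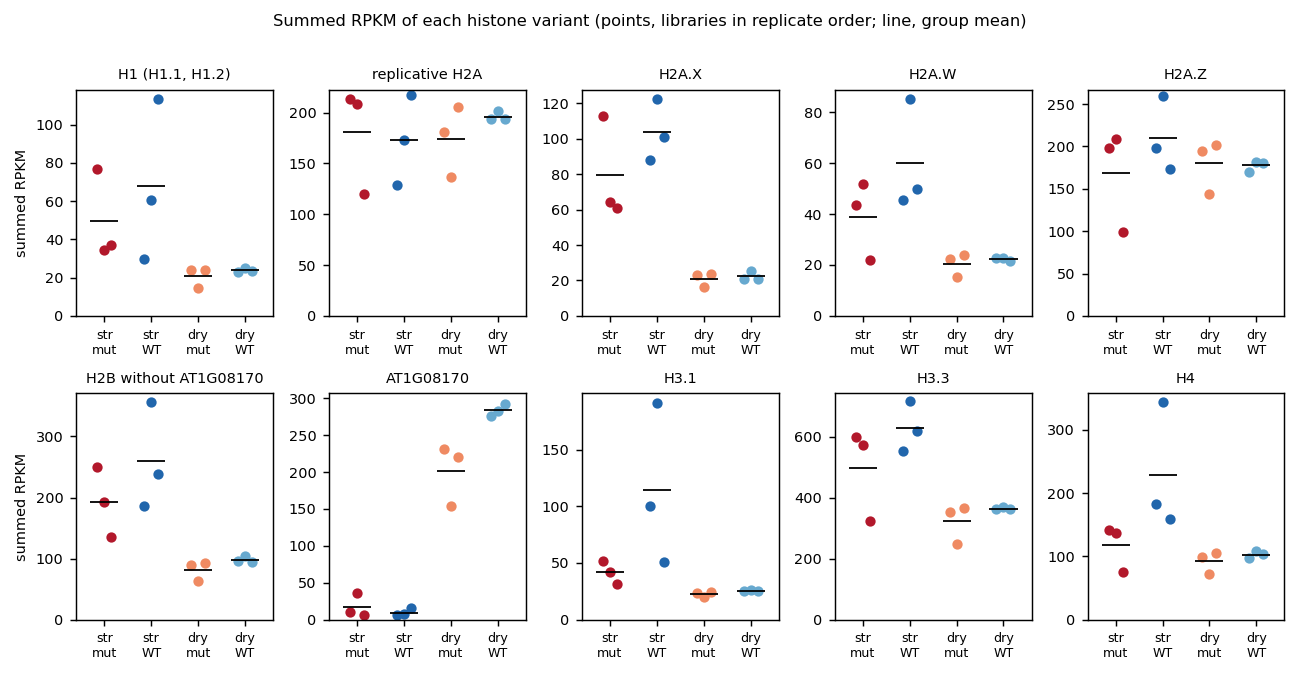
Summed RPKM of each histone variant, on a linear axis from 0, by group (str, stratified; mut, mutant-labelled; WT, wild type). Points are libraries and lines are group means. H1 (H1.1 and H1.2), H2B without AT1G08170, H2A.X and H3.1 lie higher in all 6 stratified libraries than in any dry one. AT1G08170 lies lower in all 6.

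Linker histone H1.2 rose in both lines, while H1.1 did not pass. H1.2 was at 45.1, 15.8 and 22.9 RPKM in stratified mutant-labelled seeds and 14.1, 31.2 and 62.2 RPKM in stratified wild-type seeds. In dry seeds it was at 4.87, 2.79 and 5.34 RPKM in mutant-labelled seeds and 4.78, 5.78 and 5.60 RPKM in wild-type seeds, so all 6 stratified libraries lay above all 6 dry ones. The log2 change ± standard error by limma was 2.35 ± 0.43 in mutant-labelled seeds (adjusted p = 0.00018) and 2.30 ± 0.43 in wild type (adjusted p = 0.00013), which is 1.84 and 1.66 above the median gene. H1.1, the more abundant of the pair in dry seeds, was at 31.5, 18.6 and 14.4 RPKM in stratified mutant-labelled seeds and 15.7, 29.5 and 51.2 RPKM in stratified wild-type seeds, against 19.1, 12 and 18.7 RPKM in dry mutant-labelled seeds and 18.4, 19.2 and 17.9 RPKM in dry wild-type seeds. Its groups overlapped, and its change was 0.31 ± 0.36 in mutant-labelled seeds (adjusted p = 0.48) and 0.61 ± 0.36 in wild type (adjusted p = 0.14). As a share of both, H1.2 made up 58.9, 45.9 and 61.5% in stratified mutant-labelled libraries and 47.3, 51.5 and 54.9% in stratified wild-type ones, against 18.9% to 23.8% in dry libraries. In H1.1, 39.2% of stretches of 50 bases also occur in another locus. The level of H1.1 and this share therefore depend on how reads there were assigned. HIS1-3, a stress-inducible linker histone outside the rule, fell in both lines. It was at 20.9, 26.8 and 11.3 RPKM in stratified mutant-labelled seeds and 10.8, 19.1 and 34.7 RPKM in stratified wild-type seeds, against 77.3, 51.2 and 84.3 RPKM in dry mutant-labelled seeds and 66.1, 65.7 and 60.2 RPKM in dry wild-type seeds, and changed by -1.85 ± 0.37 in mutant-labelled seeds (adjusted p = 0.00046) and -1.67 ± 0.37 in wild type (adjusted p = 0.00075).

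The 4 replicative H2A genes split. HTA2 and HTA10 rose in both lines, with changes of 2.04 ± 0.29 and 0.82 ± 0.29 in mutant-labelled seeds and 2.40 ± 0.29 and 0.92 ± 0.29 in wild type (limma adjusted p from 1.5e-06 to 0.023), and HTA10 no longer passed in either line after median centring, nor when any of 3 mutant-labelled libraries (dry replicate 2, stratified replicates 1 and 2) or stratified wild-type replicate 2 was left out. HTA13 was at 40.2, 58.7 and 21.6 RPKM in stratified mutant-labelled seeds and 17.8, 37.4 and 37.7 RPKM in stratified wild-type seeds. In dry seeds HTA13 was at 52.0, 40.2 and 58.9 RPKM in mutant-labelled seeds and 56.2, 62.0 and 56.6 RPKM in wild-type seeds. It fell in wild type, by 0.97 ± 0.35 (adjusted p = 0.022), with no overlap there, while in mutant-labelled seeds the groups overlapped (-0.41 ± 0.35, adjusted p = 0.32). Without stratified wild-type replicate 1 (-0.62) or dry wild-type replicate 2 (-0.92) the wild-type call was lost. HTA1, the most abundant of the 4 on average over the libraries, was at 100.1, 90.6 and 62.7 RPKM in stratified mutant-labelled seeds and 45.3, 46.9 and 117 RPKM in stratified wild-type seeds, against 103, 78.8 and 118 RPKM in dry mutant-labelled seeds and 110.2, 112 and 108 RPKM in dry wild-type seeds. It passed in neither line, with changes of -0.25 ± 0.35 in mutant-labelled seeds (adjusted p = 0.55) and -0.80 ± 0.35 in wild type (adjusted p just over 0.05), and without stratified wild-type replicate 3 it was lower in wild type (-1.24). Its stratified wild-type values fell into a low pair and the high replicate 3. The summed replicative H2A overlapped between groups in both lines.

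Both H2A.X genes rose in both lines. HTA3 was at 45.9, 21.2 and 24.9 RPKM in stratified mutant-labelled seeds and 49.2, 66.6 and 36.5 RPKM in stratified wild-type seeds. In dry seeds it was at 0.492, 0.137 and 1.54 RPKM in mutant-labelled seeds and 1.31, 0.996 and 0.737 RPKM in wild-type seeds. All stratified libraries lay above all dry ones, with changes of 4.20 ± 0.34 in mutant-labelled seeds (adjusted p = 3.7e-08) and 4.65 ± 0.34 in wild type (adjusted p = 5.3e-09). Pooled reads of HTA3 gave a ratio of stratified over dry of 42.2 in mutant-labelled seeds (95% exact interval 29.8 to 61.9) and 49.1 in wild type (37.4 to 66.0), intervals that cover counting error only. HTA5, its paralogue with the higher level in dry seeds, was at 67.3, 43.2 and 36.1 RPKM in stratified mutant-labelled seeds and 39.1, 56.0 and 64.7 RPKM in stratified wild-type seeds, against 22.7, 16.3 and 22 RPKM in dry mutant-labelled seeds and 19.5, 24.5 and 20.3 RPKM in dry wild-type seeds, again without overlap. HTA5 changed by 1.19 ± 0.29 in mutant-labelled seeds (adjusted p = 0.0021) and 1.25 ± 0.29 in wild type (adjusted p = 0.001), and did not pass in either line under TMM-style scaling (trimmed mean of M-values). HTA3 made up 40.5, 32.9 and 40.8% of H2A.X in stratified mutant-labelled libraries and 55.7, 54.3 and 36.1% in stratified wild-type ones, against 0.830% to 6.52% in dry libraries. The 2 H2A.X genes together took 12.1% to 20.2% of all H2A RPKM in stratified libraries and 5.05% to 5.89% in dry ones. Of the 50-base words of HTA3, 53.3% occur in another locus, and the overlapping locus AT1G54680 shares the most. The level of HTA3 therefore depends on how those reads were assigned.

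Among the H2A.W genes HTA6 rose, HTA7 rose in wild type, and HTA12 lay near the filter of 1 RPKM. HTA6 was at 10.8, 9.27 and 5.46 RPKM in stratified mutant-labelled seeds and 15.6, 37.9 and 11.5 RPKM in stratified wild-type seeds, against 2.60, 2.18 and 2.95 RPKM in dry mutant-labelled seeds and 3.26, 3.41 and 2.27 RPKM in dry wild-type seeds. No stratified library overlapped a dry one, and the changes were 1.37 ± 0.35 in mutant-labelled seeds (adjusted p = 0.0029) and 2.35 ± 0.35 in wild type (adjusted p = 1.5e-05). HTA7 was at 31.9, 41.6 and 16.1 RPKM in stratified mutant-labelled seeds and 28.8, 46.7 and 37.1 RPKM in stratified wild-type seeds, against 18.2, 12.4 and 18.9 RPKM in dry mutant-labelled seeds and 17.8, 17.8 and 17.7 RPKM in dry wild-type seeds. Its lowest stratified mutant-labelled library lay inside the dry range, and it changed by 0.74 ± 0.32 in mutant-labelled seeds (adjusted p = 0.053) and 1.01 ± 0.32 in wild type (adjusted p = 0.009); the wild-type call was lost under TMM-style scaling. HTA12 was at 0.669, 0.821 and 0.391 RPKM in stratified mutant-labelled seeds and 0.953, 0.714 and 1.03 RPKM in stratified wild-type seeds, against 1.53, 0.763 and 1.92 RPKM in dry mutant-labelled seeds and 1.69, 1.65 and 1.78 RPKM in dry wild-type seeds. It fell by 0.54 ± 0.23 in mutant-labelled seeds (limma adjusted p = 0.047), with overlapping groups, and was at -0.51 ± 0.23 in wild type (adjusted p = 0.051), where the groups did not overlap. The mutant-labelled call was lost without either of its dry replicates 1 and 3, either of its stratified replicates 1 and 3, any dry wild-type library or stratified wild-type replicate 1, when the value lay between -0.56 and -0.39.

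Within H2A.Z, HTA9 made up nearly all of the dry-seed transcript and HTA8 rose on stratification. HTA8 was at 18.4, 30.6 and 11 RPKM in stratified mutant-labelled seeds and 68.6, 79.5 and 20.9 RPKM in stratified wild-type seeds. In dry seeds it was at 0, 0.0619 and 0 RPKM in mutant-labelled seeds and 0.154, 0.201 and 0.121 RPKM in wild-type seeds, which is 1 read in 3 mutant-labelled libraries and 9 reads in 3 wild-type libraries. It had the largest rise of the tested histone genes, 4.25 ± 0.40 in mutant-labelled seeds (adjusted p = 2.1e-07) and 5.42 ± 0.40 in wild type (adjusted p = 6.9e-09). HTA8 reached 1 RPKM in the 6 stratified libraries alone, so it passed the filter through the condition in which it is high. The ratio of pooled reads was 965 in mutant-labelled seeds (95% exact interval 173 to 38131), from a single dry read, and 348 in wild type (183 to 762). Both intervals cover counting error only and not the spread between libraries. HTA9 was at 179.5, 178 and 87.5 RPKM in stratified mutant-labelled seeds and 124, 167 and 151 RPKM in stratified wild-type seeds, against 194, 143 and 202 RPKM in dry mutant-labelled seeds and 170.1, 182 and 180.0 RPKM in dry wild-type seeds. It passed in neither line, with changes of -0.33 ± 0.33 in mutant-labelled seeds (adjusted p = 0.39) and -0.27 ± 0.33 in wild type (adjusted p = 0.47), but fell in both lines once libraries were centred on their medians. HTA9 made up 85.3% to 90.5% of H2A.Z RPKM in stratified mutant-labelled libraries and 62.6%, 64.6% and 87.7% in stratified wild-type ones, against 99.78% to 99.96% in dry libraries. HTA11, named after its values were seen, did not pass the filter. It was at 0.0413, 0.129 and 0.0855 RPKM in stratified mutant-labelled seeds and 5.04, 12.1 and 0.335 RPKM in stratified wild-type seeds, against 0, 0 and 0.101 RPKM in dry mutant-labelled seeds and 0, 0.0836 and 0 RPKM in dry wild-type seeds; the 2 wild-type libraries with values of 5.04 and 12.1 RPKM hold 398 of its 406 stratified wild-type reads. HTA4 reached at most 0.404 RPKM in any library.

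**Figure D3:**
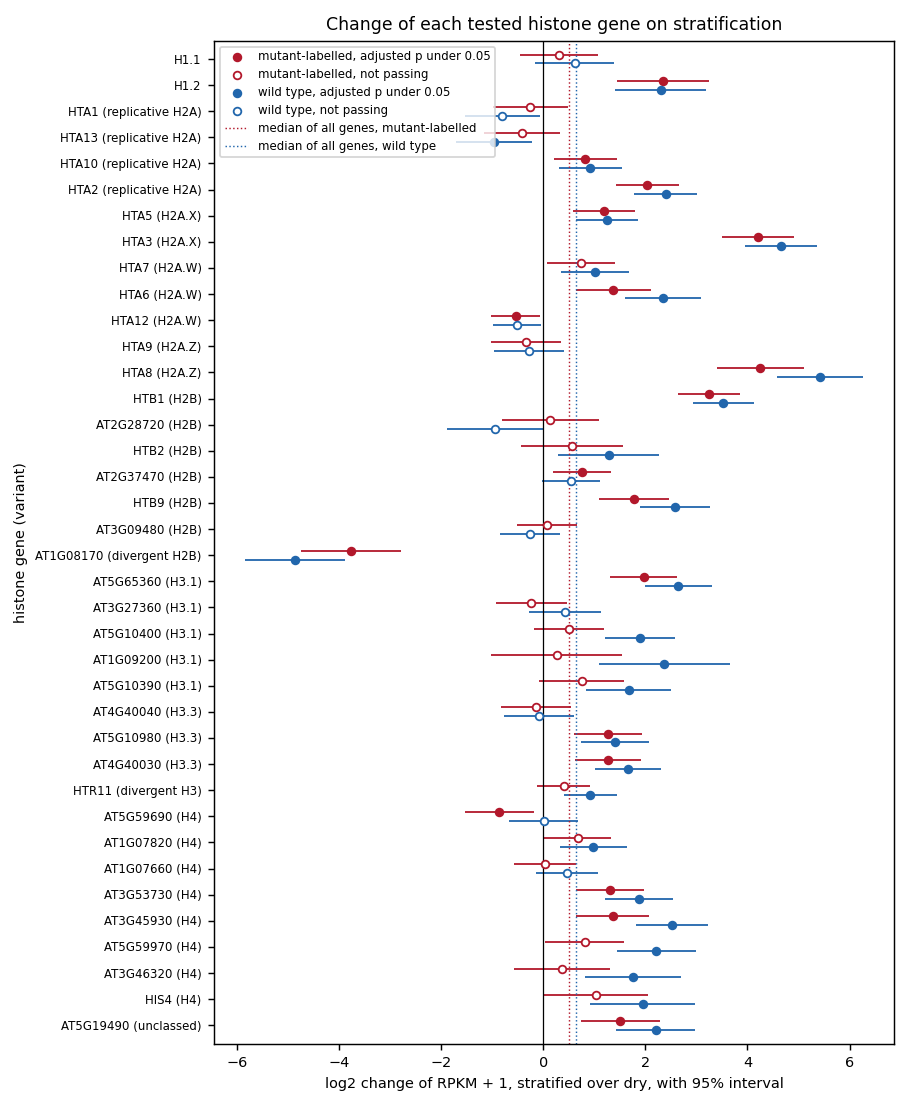
Log2 change of RPKM + 1, stratified over dry, for the 38 tested histone genes in mutant-labelled (red, upper) and wild-type seeds (blue, lower), with 95% intervals; filled points pass an adjusted p of 0.05. HTA8, HTA3 and HTB1 lie farthest right and AT1G08170 farthest left in both lines, and dotted lines mark the median of all tested genes.

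HTB1 led the rise in H2B. It was at 105, 82.6 and 57.0 RPKM in stratified mutant-labelled seeds and 91.6, 148 and 89.1 RPKM in stratified wild-type seeds. In dry seeds HTB1 was at 8.25, 6.16 and 8.04 RPKM in mutant-labelled seeds and 8.58, 9.04 and 7.42 RPKM in wild-type seeds, with no overlap, and changed by 3.25 ± 0.29 in mutant-labelled seeds (adjusted p = 1.1e-07) and 3.53 ± 0.29 in wild type (adjusted p = 1.9e-08). HTB9 rose in both lines (log2 changes 1.78 ± 0.33 and 2.58 ± 0.33 by limma). In HTB9, 31.4% of stretches of 50 bases also occur in another locus, so its level depends on how reads there were assigned. HTB2 rose in wild type alone (1.28 ± 0.47, adjusted p = 0.023), where its groups overlapped and a single library reached 103 RPKM; without that library, stratified wild-type replicate 2 (0.57), without dry wild-type replicate 1 (1.22) or under any of the 3 other scalings it did not pass, and without stratified wild-type replicate 3 it was at 1.92. AT2G37470 rose in mutant-labelled seeds alone (0.76 ± 0.27, adjusted p = 0.024), a call lost after median centring and without dry replicate 2 or stratified replicate 1 of its line. AT3G09480 and AT2G28720 passed in neither line, and AT3G53650 reached at most 0.790 RPKM and was not tested. AT2G28720, named after its values were seen, was at 47.9, 31.2 and 24.0 RPKM in stratified mutant-labelled seeds and 8.47, 11.7 and 51.1 RPKM in stratified wild-type seeds, against 33.3, 23.1 and 34.6 RPKM in dry mutant-labelled seeds and 33.9, 35.6 and 33.4 RPKM in dry wild-type seeds, so that 2 stratified wild-type libraries lay below all others. HTB4 and HTB11, H2B genes that the rule did not match, were at 308, 211 and 158 RPKM in stratified mutant-labelled seeds and 202, 261 and 282 RPKM in stratified wild-type seeds for HTB4 and 144, 98.6 and 73.9 RPKM in stratified mutant-labelled seeds and 75.4, 125 and 142 RPKM in stratified wild-type seeds for HTB11. Their dry values were 34.8 to 51.0 RPKM for HTB4 and 45.3 to 73.0 RPKM for HTB11, so both lay higher in all stratified libraries. HTB4 changed by 2.26 ± 0.31 in mutant-labelled seeds (adjusted p = 9.6e-06) and 2.30 ± 0.31 in wild type (adjusted p = 4.5e-06), and HTB11, which passed in neither line, by 0.75 ± 0.32 and 0.62 ± 0.32.

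AT1G08170, described in the deposited table as histone H2B.2, was the one gene of the 38 tested that fell in both lines; HIS1-3, outside the rule, did so too. It was at 10.9, 36.6 and 6.04 RPKM in stratified mutant-labelled seeds and 5.75, 7.22 and 15.9 RPKM in stratified wild-type seeds. In dry seeds it was the most abundant H2B transcript, at 231, 154 and 220.0 RPKM in mutant-labelled seeds and 276, 283 and 292 RPKM in wild-type seeds. All 6 stratified libraries lay below all 6 dry ones, and dry mutant-labelled libraries lay below dry wild-type ones, a difference that did not pass (-0.51 ± 0.46, adjusted p = 1). The change was -3.76 ± 0.46 in mutant-labelled seeds (adjusted p = 3.6e-06) and -4.86 ± 0.46 in wild type (adjusted p = 1.1e-07), or -4.27 and -5.50 relative to the median gene. It supplied 72.0, 70.9 and 70.4% of H2B RPKM in dry mutant-labelled libraries and 74.3, 72.9 and 75.6% in dry wild-type ones, and 1.99% to 15.9% in stratified libraries. Counting HTB4 and HTB11 as well, its dry share was 51.0% to 57.9%. The gene lies on chromosome 1 at chr1:2562769-2563706, minus strand, and its coding sequence of 732 bases is longer than those of the other H2B genes, which run from 381 to 456 bases. No 50-base word of its transcript occurs in another locus. The 5 tested genes outside the histones with the closest pattern over the 12 libraries were LEA29 (r = 0.998), a late embryogenesis abundant protein, GOLS2 (r = 0.998), a galactinol synthase, the pheophytinase PPH (r = 0.998), UPS4 (r = 0.998) and ACHT4 (r = 0.998). These correlations are descriptions across libraries that fall into a dry and a stratified cluster, and many genes that fall on stratification share that split.

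**Figure D4:**
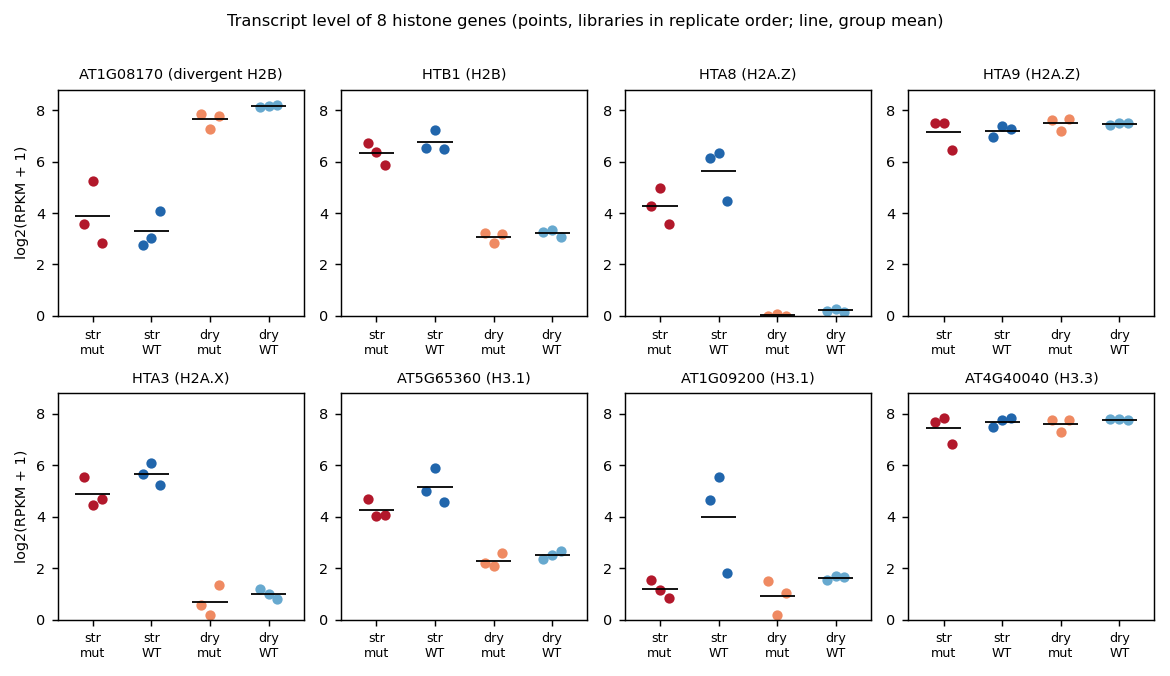
Log2(RPKM + 1) of 8 histone genes in each library (points, in replicate order; line, group mean; str, stratified; mut, mutant-labelled). AT1G08170 falls and HTB1, HTA8, HTA3 and AT5G65360 rise in both lines, AT1G09200 is high in 2 stratified wild-type libraries, and HTA9 and AT4G40040 passed in neither line.

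Of the 5 H3.1 genes 1 rose in mutant-labelled seeds and 4 rose in wild type. Among all tested genes 43.4% were higher in mutant-labelled seeds and 49.8% in wild type, and counts of so few genes are descriptions. AT5G65360 rose in both lines and was at 24.8, 15.5 and 15.6 RPKM in stratified mutant-labelled seeds and 31, 58.2 and 23.2 RPKM in stratified wild-type seeds. In dry seeds it was at 3.66, 3.26 and 4.96 RPKM in mutant-labelled seeds and 4.09, 4.78 and 5.34 RPKM in wild-type seeds, below every stratified library. Its change was 1.97 ± 0.31 in mutant-labelled seeds (adjusted p = 4.7e-05) and 2.65 ± 0.31 in wild type (adjusted p = 1.1e-06). AT5G10400 and AT5G10390 changed by 0.50 ± 0.33 and 0.76 ± 0.40 in mutant-labelled seeds, where neither passed, and rose by 1.90 ± 0.33 and 1.68 ± 0.40 in wild type (limma adjusted p = 6.1e-05 and 0.0012). AT1G09200, named after its values were seen, was at 1.95, 1.2 and 0.771 RPKM in stratified mutant-labelled seeds and 23.9, 46.2 and 2.50 RPKM in stratified wild-type seeds. Its dry values were 1.84, 0.143 and 1.05 RPKM in mutant-labelled seeds and 1.90, 2.21 and 2.18 RPKM in wild-type seeds. The rise in wild type was 2.37 ± 0.61 (adjusted p = 0.0024); replicates 1 and 2 were far above the dry range, and replicate 3, at 2.50 RPKM, was just above it. In mutant-labelled seeds AT1G09200 overlapped with dry seeds (0.26 ± 0.61, adjusted p = 0.73). AT3G27360 passed in neither line, and 35.6% of its stretches of 50 bases also occur in another locus.

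Of the 3 H3.3 genes, AT4G40030 and AT5G10980 rose in both lines and AT4G40040 did not pass. AT4G40040, the most abundant histone transcript on average over the libraries, was at 208, 227 and 114 RPKM in stratified mutant-labelled seeds and 178, 218 and 229.7 RPKM in stratified wild-type seeds. In dry seeds AT4G40040 was at 214, 156 and 216 RPKM in mutant-labelled seeds and 220.4, 220.1 and 218 RPKM in wild-type seeds. Its groups overlapped, with changes of -0.14 ± 0.33 in mutant-labelled seeds (adjusted p = 0.72) and -0.08 ± 0.33 in wild type (adjusted p = 0.83), and under median centring it fell in both lines. AT4G40030 begins 42 bases downstream of AT4G40040 on the same strand and was at 196, 149 and 102 RPKM in stratified mutant-labelled seeds and 183, 239 and 185 RPKM in stratified wild-type seeds. Its dry values were 65.6, 44.1 and 72.1 RPKM in mutant-labelled seeds and 63.5, 63.0 and 63.3 RPKM in wild-type seeds, with no overlap, and it rose by 1.27 ± 0.31 in mutant-labelled seeds (adjusted p = 0.002) and 1.65 ± 0.31 in wild type (adjusted p = 0.00014). AT5G10980, on chromosome 5, was at 195, 195 and 106 RPKM in stratified mutant-labelled seeds and 192, 261 and 204 RPKM in stratified wild-type seeds, against 72.6, 49.4 and 78.6 RPKM in dry mutant-labelled seeds and 77.9, 86.2 and 80.2 RPKM in dry wild-type seeds. It changed by 1.27 ± 0.32 in mutant-labelled seeds (adjusted p = 0.0024) and 1.40 ± 0.32 in wild type (adjusted p = 0.00077). AT4G40040 made up 30.3% to 39.7% of H3.3 RPKM in stratified libraries and 59.0% to 62.5% in dry ones.

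H3.1 was a minor share of H3 transcripts in every library. Of H3.1 and H3.3 together it made up 7.94, 6.87 and 8.97% in stratified mutant-labelled libraries and 15.3, 21.0 and 7.64% in stratified wild-type ones. In dry seeds the share was 6.20, 7.4 and 6.28% in mutant-labelled libraries and 6.44, 6.69 and 6.48% in wild-type ones. The 2 highest shares belonged to stratified wild-type replicates 1 and 2, and replicate 3 of that group lay within the mutant-labelled range. Among the divergent H3 genes HTR11, which lies 33 bases downstream of AT5G65360, was at 0.783, 1.71 and 0.885 RPKM in stratified mutant-labelled seeds and 2.62, 1.44 and 1.01 RPKM in stratified wild-type seeds, against 0.458, 0.445 and 0.871 RPKM in dry mutant-labelled seeds and 0.517, 0.360 and 0.262 RPKM in dry wild-type seeds. HTR11 rose in wild type (0.92 ± 0.25, adjusted p = 0.0031; not past the threshold after median centring) and did not pass in mutant-labelled seeds (0.40 ± 0.25, adjusted p = 0.17). It reached 1 RPKM in 4 libraries, all of them stratified, so it too passed the filter through the condition in which it is high. AT1G13370, AT1G75600 and AT5G12910 did not pass the filter and reached at most 0.329, 0.998 and 0.112 RPKM. HTR12, the centromeric H3 that is loaded at centromeres of dividing cells, did not pass it either and was at 0.419, 0.669 and 0.280 RPKM in stratified mutant-labelled seeds and 1.15, 1.79 and 0.699 RPKM in stratified wild-type seeds, against 0.0317, 0.0615 and 0.151 RPKM in dry mutant-labelled seeds and 0.0256, 0.0997 and 0.0603 RPKM in dry wild-type seeds. All of its stratified libraries lay above all of its dry ones, at 54 against 8 reads in mutant-labelled seeds and 143 against 7 in wild type.

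Of the 8 H4 genes 2 rose and 1 fell in mutant-labelled seeds, and 6 rose in wild type. Among all tested genes 43.4% were higher and 15.2% lower in mutant-labelled seeds, and 49.8% were higher in wild type. With so few genes the H4 counts are descriptions. AT3G45930 rose the most in both lines and was at 14.5, 14.6 and 8.3 RPKM in stratified mutant-labelled seeds and 29.5, 53.3 and 18.5 RPKM in stratified wild-type seeds. In dry seeds it was at 3.81, 3.47 and 5.17 RPKM in mutant-labelled seeds and 4.85, 5.75 and 3.32 RPKM in wild-type seeds, with no overlap, and it changed by 1.36 ± 0.34 in mutant-labelled seeds (adjusted p = 0.0024) and 2.52 ± 0.34 in wild type (adjusted p = 4.8e-06). AT3G53730 also rose in both, by 1.31 ± 0.32 in mutant-labelled seeds and 1.87 ± 0.32 in wild type. AT5G59690, the H4 transcript with the highest mean over the 12 libraries, was at 27.2, 22.2 and 12 RPKM in stratified mutant-labelled seeds and 32.1, 61.8 and 39.7 RPKM in stratified wild-type seeds. Its dry values were 41.9, 27.1 and 41.1 RPKM in mutant-labelled seeds and 39.1, 45.8 and 43.3 RPKM in wild-type seeds. It fell by 0.86 ± 0.32 in mutant-labelled seeds (adjusted p = 0.03), with overlapping groups, and did not pass in wild type (0.01 ± 0.32, adjusted p = 0.98), where median centring turned the sign and made it pass (-0.57). The mutant-labelled call was lost without its dry replicate 1 or 3 or its stratified replicate 3. AT1G07820, the least raised of the H4 genes that passed in wild type, was at 33.6, 42.3 and 17.9 RPKM in stratified mutant-labelled seeds and 33.3, 53.7 and 32.6 RPKM in stratified wild-type seeds, against 19.8, 14.1 and 21.3 RPKM in dry mutant-labelled seeds and 18.5, 18 and 20.8 RPKM in dry wild-type seeds. It changed by 0.67 ± 0.31 in mutant-labelled seeds (adjusted p = 0.074) and 0.98 ± 0.31 in wild type (adjusted p = 0.01), and without stratified wild-type replicate 2 it did not pass. AT3G46320, AT5G59970 and HIS4 rose in wild type alone, by 1.76 to 2.22, of which AT3G46320 was at 1.14 and HIS4 at 1.24 without stratified wild-type replicate 2, and AT1G07660 passed in neither line, with a sign that turned negative in mutant-labelled seeds under all 3 other scalings and in wild type under TMM-style scaling. AT5G59970, named after its values were seen, was at 5.75, 3.82 and 2.72 RPKM in stratified mutant-labelled seeds and 15.2, 30.0 and 6.96 RPKM in stratified wild-type seeds, against 1.38, 1.83 and 2.32 RPKM in dry mutant-labelled seeds and 2.53, 2.22 and 2.51 RPKM in dry wild-type seeds.

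AT5G19490, the histone superfamily gene outside the core classes, rose in both lines. It was at 6.80, 12.6 and 3.27 RPKM in stratified mutant-labelled seeds and 12.5, 15.8 and 5.79 RPKM in stratified wild-type seeds, against 2.01, 1.27 and 1.87 RPKM in dry mutant-labelled seeds and 1.45, 1.58 and 1.5 RPKM in dry wild-type seeds. Stratified and dry libraries did not overlap in either line. The change was 1.51 ± 0.37 in mutant-labelled seeds (adjusted p = 0.0021) and 2.20 ± 0.37 in wild type (adjusted p = 5e-05).

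The next comparisons ask whether the lines differ. Between them no histone gene passed in stratified seeds, in dry seeds or in the interaction of line and stratification (limma). Over all tested genes 0.211%, 0.0462% and 0.0264% passed in those comparisons. At an unadjusted p under 0.05, 14 of the 38 histone genes differed in stratified seeds, all lower in mutant-labelled seeds, where 15.4% of all genes were lower at that level. In dry seeds 0 of 38 did so (1.5% of all genes in either direction), and in the interaction 5 of 38 did (6.99% in either direction). The lowest adjusted p was 0.67 in the interaction. In stratified seeds it was 0.077, for the H3.1 gene AT1G09200 (-2.83 ± 0.61) and the H4 gene AT5G59970 (-1.68 ± 0.37). In 7 of the 38 genes every stratified mutant-labelled library lay below every stratified wild-type one, where 3.62% of all genes did so. The median of all genes was -0.19 here. The 7 were HTA6, AT1G09200, AT5G10400, AT3G46320, AT5G59690, AT5G59970 and AT3G45930, and none lay above (1.43% of all genes). In dry seeds 7 lay below and 1 above, where 21.3% and 4.85% of all genes did so.

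This comparison depended on stratified wild-type replicate 3. Without it, 15 histone genes were lower in stratified mutant-labelled seeds and 1 was higher (limma, adjusted over all 15145 genes), against 24.3% and 5.48% of all genes. The 15 were the 5 H3.1 genes, 5 of the 8 H4 genes, HTA3, HTA6, HTA8, HTB2 and AT5G19490, and the 1 higher was AT2G28720. None of the H3.3 or H1 genes was among them. AT1G09200 was then at -3.92 (adjusted p = 9.2e-14), AT3G46320 at -2.30 (1.9e-07) and AT5G59970 at -2.18 (2.5e-07). In the interaction 10 were lower and 2 higher without that library, against 11.6% and 3.86% of all genes. Leaving out any other single library gave 0 calls in both comparisons. The replicate carried more ribosomal RNA, 15.4% of reads against 5.91% and 3.05% in its group. Stratified mutant-labelled libraries carried 15.1%, 3.78% and 29.3%, so without the replicate the lines also lay further apart in ribosomal RNA. The part of this in the result was not tested. With the ribosomal share as a covariate in the fit of all 12 libraries, 0 histone genes passed in either comparison. None had passed there without the covariate either. That fit keeps stratified wild-type replicate 3, so it says nothing on the calls made without that library. Without the 4 libraries over 10%, which leaves a single stratified mutant-labelled library assumed to vary like the others, 15 were lower and 5 higher, against 18.5% and 23.9% of all genes.

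**Figure D5:**
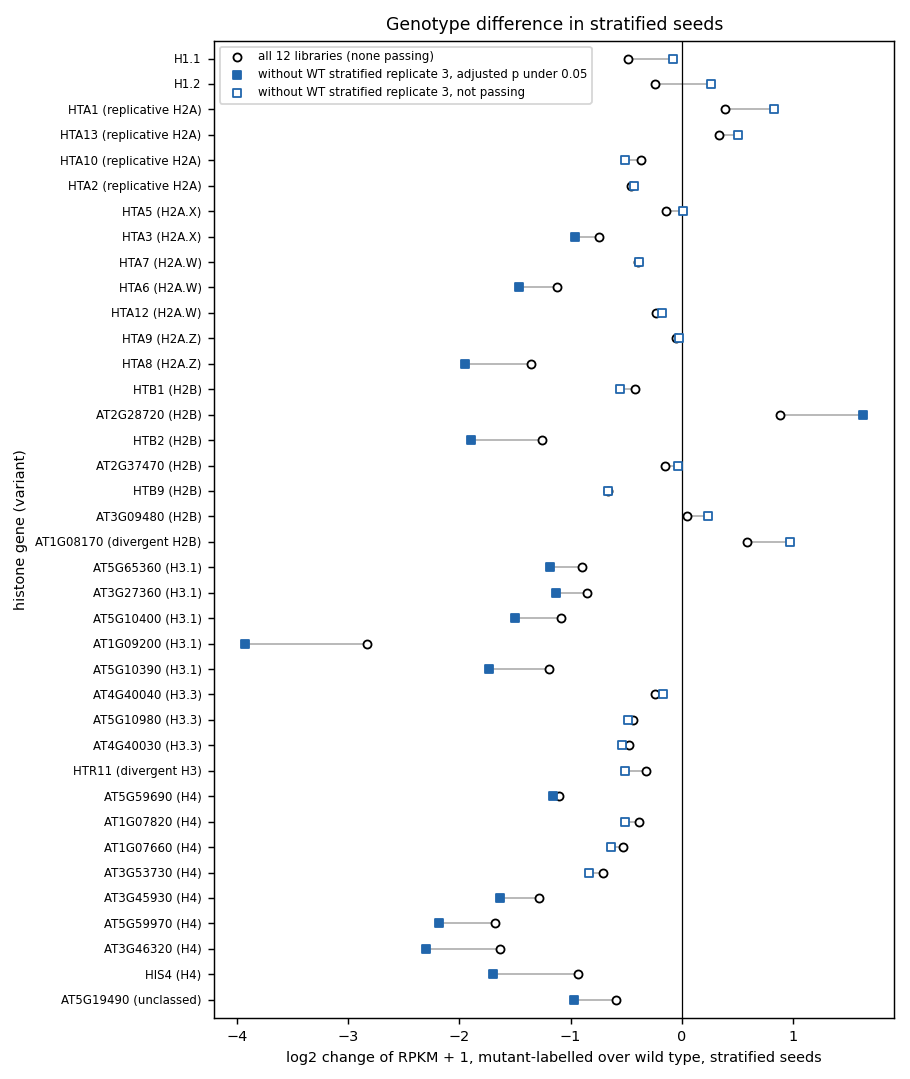
Log2 change of RPKM + 1, mutant-labelled over wild type, in stratified seeds for the 38 tested histone genes. Circles use all 12 libraries and none pass; squares leave out stratified wild-type replicate 3, filled where they pass, and the filled squares on the left are the 5 H3.1 genes, 5 H4 genes, HTA3, HTA6, HTA8, HTB2 and AT5G19490.

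Octamer carriers and other genes were both found among those that rose. Of its 10 carriers 3 were higher and 1 lower in mutant-labelled seeds, and 5 were higher and 1 lower in wild type. Of the 28 tested genes without it 13 were higher and 2 lower in mutant-labelled seeds, and 20 higher and 1 lower in wild type. Among the carriers were the H3.1 gene AT1G09200, with a pair of octamers, and the H3.3 gene AT4G40040, which passed in neither line. Of 8 tested genes with the hexamer 4 were higher in mutant-labelled seeds and 5 in wild type. Over all tested genes 43.4% were higher and 15.2% lower in mutant-labelled seeds, and 49.8% were higher and 18.9% lower in wild type, and nothing particular to either motif is read from these counts. A match describes letters in a window and does not show that a factor binds there.

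Genes that handle histones were followed as lists of histone chaperones, H2A variant deposition factors, S phase genes and the E2F and RBR regulators. Of 16 tested chaperone genes (18 listed), 13 were higher and 1 lower in mutant-labelled seeds, and 8 were higher and 1 lower in wild type, where 43.4% and 49.8% of all genes were higher in those lines. The largest rises in wild type were those of the H2A-H2B chaperones NAP1;3 and NRP1. NRP1 was at 211, 235 and 115 RPKM in stratified mutant-labelled seeds and 302, 320.1 and 214 RPKM in stratified wild-type seeds, against 15.1 to 23.8 RPKM in dry seeds, with changes of 3.27 ± 0.31 in mutant-labelled seeds (adjusted p = 1.9e-07) and 3.58 ± 0.31 in wild type (adjusted p = 3.2e-08). NAP1;3 changed by 2.97 ± 0.34 in mutant-labelled seeds (adjusted p = 1.8e-06) and 3.81 ± 0.34 in wild type (adjusted p = 5.5e-08). UBN1, a subunit of the HIRA complex, fell by 0.81 ± 0.28 in mutant-labelled seeds and 1.02 ± 0.28 in wild type. The CAF-1 subunits FAS1 and FAS2 did not pass the filter, FAS2 being at 0.297, 0.143 and 0.260 RPKM in stratified mutant-labelled seeds and 1.25, 2.29 and 0.0464 RPKM in stratified wild-type seeds, against 0 to 0.0280 RPKM in dry seeds. The list's median change was 0.97 in mutant-labelled seeds and 0.71 in wild type, beside 0.50 and 0.64 for all genes.

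Of the 7 H2A deposition factors 2 were higher and 1 lower in mutant-labelled seeds, and 4 were higher and 1 lower in wild type (median changes 0.04 in mutant-labelled seeds and 0.80 in wild type). The background for these lists was 43.4% of all tested genes higher and 15.2% lower in mutant-labelled seeds, and 49.8% higher and 18.9% lower in wild type. DDM1, a remodeller that deposits H2A.W, changed by 1.58 ± 0.29 in mutant-labelled seeds (adjusted p = 0.00022) and 2.06 ± 0.29 in wild type (adjusted p = 9.7e-06), and reached 1 RPKM in no dry library, so it passed the filter through stratified seeds. PIE1, the ATPase of SWR1, changed by 1.45 ± 0.23 in mutant-labelled seeds (adjusted p = 5.5e-05) and 1.26 ± 0.23 in wild type (adjusted p = 0.00013), and the remodeller INO80 fell by 0.81 ± 0.24 in mutant-labelled seeds and 0.69 ± 0.24 in wild type. Of 12 tested S phase genes (15 listed), 10 were higher in mutant-labelled seeds and 12 in wild type. Of the 12, 10 (CDT1A, MCM2 to MCM7, PCNA1, PCNA2 and TSO2) reached 1 RPKM in no dry library and so passed the filter through stratified seeds, where they had to be high, and these counts are therefore a description and no support for a rise of the list. PCNA1, a sliding clamp of replication, was at 4.69, 4.38 and 3.13 RPKM in stratified mutant-labelled seeds and 18.2, 28.0 and 3.93 RPKM in stratified wild-type seeds, against 0 to 0.0948 RPKM in dry seeds. It changed by 2.28 ± 0.42 in mutant-labelled seeds (adjusted p = 0.00022) and 3.78 ± 0.42 in wild type (adjusted p = 6.4e-07), and PCNA2 by 2.59 ± 0.34 in mutant-labelled seeds (adjusted p = 7e-06) and 3.13 ± 0.34 in wild type (adjusted p = 4.5e-07). Of the 6 E2F and RBR regulators 3 were higher and 2 lower in mutant-labelled seeds, and 2 higher and 2 lower in wild type (median changes 0.59 in mutant-labelled seeds and 0.48 in wild type). DPA, a dimer partner of E2F factors, rose by 1.82 ± 0.27 in mutant-labelled seeds and 2.34 ± 0.27 in wild type, and E2FA, which reached 1 RPKM in no dry library, by 1.36 ± 0.26 in mutant-labelled seeds and 1.56 ± 0.26 in wild type. E2FB fell by 1.31 ± 0.30 in mutant-labelled seeds and 1.82 ± 0.30 in wild type, and E2FC by 0.63 ± 0.25 and 0.87 ± 0.25.

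Markers of seed tissues moved with stratification as well. The 4 embryo markers (HSFA9, FUS3, ABI3 and LEC1) summed to 37.0 to 90.1 RPKM in stratified mutant-labelled and 56.8 to 79.5 RPKM in stratified wild-type libraries, against 108 to 131 RPKM in dry mutant-labelled and 147 to 153 RPKM in dry wild-type libraries. Of the 3 tested, ABI3 rose and HSFA9 and FUS3 fell in both lines. The 4 endosperm markers (EPR1, EXPA2, MAN7 and NAC25) summed to 467 to 762 RPKM in stratified mutant-labelled and 602 to 1329 RPKM in stratified wild-type libraries, against 1681 to 2368 RPKM in dry mutant-labelled and 1857 to 2745 RPKM in dry wild-type libraries. NAC25 was at 0 in every library, EPR1 fell and EXPA2 and MAN7 rose in both lines, EXPA2 with no dry library at 1 RPKM. The 4 seed coat markers (MUM4, TT12, BAN and TT10) summed to 0.999 to 1.74 RPKM in stratified mutant-labelled and 1.2 to 3.28 RPKM in stratified wild-type libraries, against 0.174 to 0.401 RPKM in dry mutant-labelled and 0.351 to 0.467 RPKM in dry wild-type libraries, and MUM4, the one tested, rose in both lines and reached 1 RPKM in no dry library. Their part in the histone changes was not tested.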

How the data were processed

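Messenger RNA of 12 whole-seed libraries was sequenced, and the authors deposited RPKM values for 32833 loci. STAR, DESeq2 and the TAIR10 build stand in the submitters' processing notes, with no roles given. Low RPKM values were whole multiples of 1 read in 99.0% of 54278 cases (tolerance 0.05 reads, 10% by chance), which gave reads and depth. Genes at 1 RPKM or more in at least 3 libraries were tested on log2(RPKM + 1) with limma 3.58.1 (R 4.3.3), using 4 group means, a mean-variance trend, 2-sided tests and Benjamini-Hochberg adjustment over all 15145 genes. On data simulated from the means and spread of these genes, 37% of 2-fold and 90% of 4-fold changes were recovered among 15145 genes. Only a small part of the genes was changed in the simulation, whereas 68.6% passed in the real wild-type stratification comparison. The recovery rates therefore describe the simulated setting and not that comparison.

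The histone genes, lists and markers were chosen with earlier results of these data known. Values per library are given for the most abundant gene of each class, the most raised and most lowered gene of each class, every tested H1, H2A.X, H2A.W, H2A.Z, H3.3 and divergent gene, and up to 2 genes per list and direction. HTA1, AT1G09200, AT5G59970, HTA11, AT2G28720, FAS2, the loci outside the rule and the genes whose calls a single library changed were added after their values were seen. Alternatives were a pseudocount of 0.1, no filter, median, TMM-style and quantile scaling, a ribosomal RNA covariate, libraries left out, a replicate block and the compared groups alone.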

Additional observations from a re-analysis of the deposited data

How the results depend on the processing

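Under the scalings, the ribosomal covariate, no filter or the 2 groups alone, no share of all tested genes was taken. Counts of calls under those settings, here and below, therefore have no background and are descriptions. The number of histone genes lower in mutant-labelled seeds was 8, 8 and 9 under median, TMM-style and quantile scaling, and 1 without the filter, with the ribosomal covariate or with the 2 groups alone. In wild type it was 9, 10 and 9 under those scalings, 4 with the covariate and 7 without libraries over 10% ribosomal RNA. Between lines in stratified seeds 1 gene was lower under TMM-style scaling, 3 under quantile scaling, 3 with the 2 groups alone and 15 without libraries over 10% ribosomal RNA, where 5 were higher; in the interaction the last setting gave 10 lower and 5 higher, against 14.9% and 20.3% of all genes. Without replicate 3 of both stratified groups, chosen after the data were seen, 1 was lower in mutant-labelled seeds and 6 in wild type, 13 lower and 5 higher between lines, against 20.5% and 14.6% of all genes, and 8 lower and 5 higher in the interaction, against 12.6% and 13.2%. Replicate numbers did not pair samples (same-number r from -0.32 to 0.20, 2 of 18 over 0.1); with the replicate block 5 genes were lower between lines in stratified seeds, against 1.86% of all genes.

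Leaving out single libraries gave 1 to 3 lower in mutant-labelled seeds, 1 to 5 lower in wild type, 0 to 1 higher and 0 to 15 lower between lines, and 0 to 2 higher and 0 to 10 lower in the interaction. It gave 1 to 2 lower E2F and RBR genes in mutant-labelled seeds and 2 to 4 higher in wild type, 0 to 1 lower deposition factors in wild type, 6 to 12 higher S phase genes in mutant-labelled seeds, and 8 to 14 higher and 0 to 1 lower chaperones there.

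Of the E2F and RBR genes, 1 was lower in mutant-labelled seeds with the covariate or 2 groups alone, and 4 were higher in wild type under those settings, without libraries over 10% ribosomal RNA or without both replicates 3. Of deposition factors, 5 were higher in mutant-labelled seeds with the covariate or without those libraries, and 4 lower under each scaling; in wild type 2 were higher under TMM-style scaling, and 2, 3 and 2 lower under median, TMM-style and quantile scaling. Of S phase genes 5 were higher in mutant-labelled seeds after median centring. Of chaperones 8 were higher in mutant-labelled seeds under TMM-style scaling or 2 groups alone; 2 were lower under each scaling, and 0 without those libraries or with 2 groups alone. In wild type 13 were higher with the covariate or without those libraries, and 2, 3 and 2 lower under the scalings.

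With loci outside the rule the log2 ratio of summed H1 was -0.41 in mutant-labelled seeds and 0.027 in wild type, and that of H2B 0.48 and 0.33. As a share of all histone RPKM in wild type, H2A was at -0.11, H2B at -1.03 and H3 at 0.44, and H2A was at 0.64 as a share of all loci. AT1G07660 was at -0.43, -0.53 and -0.34 in mutant-labelled seeds under median, TMM-style and quantile scaling and -0.32 in wild type under TMM-style scaling, AT5G59690 at -0.57, -0.79 and -0.51 in wild type, and HIS1-3 at 0.85 between lines without libraries over 10% ribosomal RNA. The cause was not tested in any of these. Depth limits genes under 1 RPKM in most libraries (HTA4, HTA11, HTR12 and the divergent H3 genes), and 3 libraries per group limit differences between lines.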
